A study of Mus musculus with 6 samples.

Results

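The cytokines that signal through gp130 were followed in the lining of the mouse stomach, over 10 genes: the ligands Il11, Il6, Lif and Osm, the receptor subunits Il11ra1, Il6ra, Il6st and Osmr, the transcription factor Stat3 and its feedback inhibitor Socs3. They were taken by name from the array's annotation, as all probes that were not controls and carried one of these gene names. They made up 10 of the 31709 genes and transcripts on the array, with 11 of its 39429 probes and 20 of its 43020 spots. Stat3 had 2 probes and each of the other genes had 1.

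The RNA came from the glandular stomach of C57BL/6J mice, as mucosa separated from the muscle layer, and was hybridised to 6 one-colour Agilent arrays. Wild-type mice of 5, 10 and 50 weeks were set against A4gnt-null mice of the same ages, with 1 mouse and 1 array for each genotype and age. A4gnt encodes the enzyme that adds terminal α1,4-linked N-acetylglucosamine to the O-glycans of gastric gland mucin. Sex, littermates and the making of the null allele are not given in the sources used here. The 3 ages stand in as the replicates of a genotype, so every difference between genotypes is a difference over mice of unlike age. All wild-type arrays lay on one slide and all null arrays on another, so genotype and slide cannot be told apart.

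Values per array are given as the scaled signal, in which 100 is the 75th percentile of that array's probes. Levels of different genes cannot be compared on this scale, since each probe binds with its own strength. Between 54.8% and 59.2% of the spots of an array were well above background, and replicate spots of one probe had a median log2 SD between 0.086 and 0.12. A4gnt had a scaled signal of 64.4, 91.1 and 91.2 in wild type at 5, 10 and 50 weeks and of 0.909, 0.897 and 0.525 in the nulls, where it was not well above background. Markers of the labelled tissue were bright on every array: the summed scaled signal of 4 surface mucous cell genes lay between 213331 and 305631, and that of 4 parietal cell genes between 20690.1 and 72182.4. Because the tissue is a mixture, fewer cells of a type and less RNA per cell cannot be told apart in any value below.

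gp130, the product of Il6st, is the shared signalling subunit of this cytokine family. A ligand first binds its own receptor subunit (Il11ra1 for interleukin 11, Il6ra for interleukin 6) or a second signalling subunit (Osmr, Lifr). Janus kinases on the receptor then phosphorylate Stat3, which enters the nucleus and switches on target genes. Among them is Socs3, whose protein binds gp130 and shuts the signal down. In the mouse stomach the pathway is known from gp130-mutant mice that lack this brake and develop gastric tumours, in which interleukin 11 is a driving ligand.

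The promoters of Il11, Socs3 and Osmr are shown because these 3 genes were higher in the null array than in the wild-type array at every age. Each sequence is the 250 bases before the RefSeq start site in GRCm38.p6, read 5′ to 3′ on the gene's own strand, with any motif match in capitals. The Il11 promoter lies at chr7:4778142-4778391 (minus strand), the Socs3 promoter at chr11:117969367-117969616 (minus strand) and the Osmr promoter at chr15:6874314-6874563 (minus strand).
Il11: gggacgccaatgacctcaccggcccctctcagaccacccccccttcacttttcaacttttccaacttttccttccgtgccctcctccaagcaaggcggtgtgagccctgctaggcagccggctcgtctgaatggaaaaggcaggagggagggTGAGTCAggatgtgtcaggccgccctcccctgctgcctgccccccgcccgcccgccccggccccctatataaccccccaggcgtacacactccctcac
Socs3: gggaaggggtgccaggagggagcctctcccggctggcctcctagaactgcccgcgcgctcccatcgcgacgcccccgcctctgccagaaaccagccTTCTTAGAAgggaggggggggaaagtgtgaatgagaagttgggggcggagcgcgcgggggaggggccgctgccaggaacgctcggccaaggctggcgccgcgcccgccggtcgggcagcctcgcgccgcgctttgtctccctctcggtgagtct
Osmr: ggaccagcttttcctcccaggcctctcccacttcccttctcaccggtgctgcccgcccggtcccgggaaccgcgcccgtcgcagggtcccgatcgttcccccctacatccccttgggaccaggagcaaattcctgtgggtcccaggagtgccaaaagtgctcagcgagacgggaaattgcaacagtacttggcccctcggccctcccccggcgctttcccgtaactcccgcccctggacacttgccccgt
The capitals in the Il11 promoter mark a match to the AP-1 motif TGANTCA, which begins 98 bases before the start site. Those in the Socs3 promoter mark a match to the STAT motif TTCNNNGAA, beginning 154 bases before the start. Both motifs read the same on either strand and neither overlapped another match. Of 32851 mouse promoters of this length, 7.02% hold the STAT motif and 6.75% the AP-1 motif. RefSeq promoters were at hand for 9 of the 10 genes, with 11 start sites. The STAT motif was in 1 of these, that of Socs3, and the AP-1 motif in 3, those of Il6, Lif and one of the Il11 start sites. The printed Osmr window holds neither, nor does that of the other Il11 start site (chr7:4782858-4783107, minus strand), which is not printed. A match is a stretch of letters and says nothing of binding in this tissue.

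The first comparison asks which of these genes differ between null and wild-type mucosa. Il11 was several times higher in the nulls, with Osmr and Socs3 also higher at each age, while the receptor subunits Il11ra1, Il6ra and Il6st were lower at each age and Stat3 was level. Of all genes tested 26.1% were higher and 26.1% lower in the null at each of the 3 ages. None of these differences passed the test. The genotype effect was fitted with limma over the 17860 genes that were well above background on at least 3 arrays, with age as a factor and Benjamini-Hochberg adjustment. It called 0 genes, or 0%, at an adjusted p under 0.05, and the smallest adjusted p of any gene was 0.0922. Before adjustment 4216 genes (23.6%) had a limma p under 0.05. Of the 10 axis genes 8 were tested, and Il6 and Osm were not, being well above background on only 2 arrays and 1 array. Of the 8, 5 had a limma p under 0.05 before adjustment, and their adjusted p-values ran from 0.141 to 0.951. All 3 null arrays lay above all 3 wild-type arrays for 2 of the 8 (Il11 and Socs3), against 12.5% of all genes tested. All 3 lay below for 1 of the 8 (Il11ra1), against 11.3% of all genes. The median difference of the 8 genes was -0.15 on the log2 scale, beside -0.03 over all genes.

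**Figure D1:**
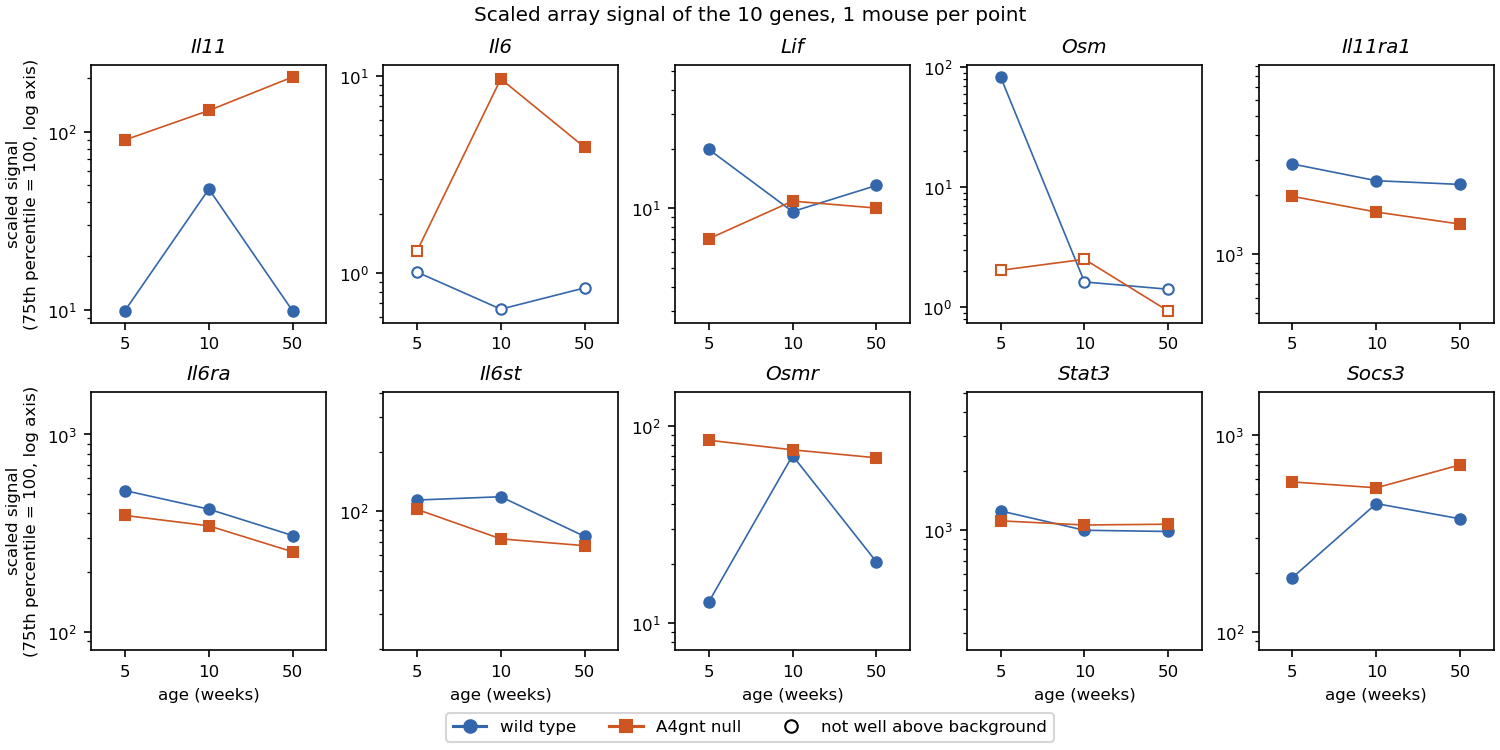
Scaled signal (log axis, 75th percentile of the array = 100) of each of the 10 genes against age in weeks, with 1 mouse per point, circles for wild type, squares for A4gnt null and open symbols where the probe was not well above background. Il11 and Socs3 lie higher in every null mouse than in any wild-type mouse, Il11ra1 lies lower in every null mouse, and Osm stands out on the wild-type array of 5 weeks alone.

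Il11, the ligand that acts through Il11ra1 and gp130, was read by a probe at chr7:4724847-4724906 (mm9, as in the array's annotation). Its scaled signal was 9.88, 47.6 and 9.81 in wild type at 5, 10 and 50 weeks, and 89.8, 131 and 203 in the nulls. It was well above background on all 6 arrays, and the groups did not overlap: the lowest null array stood above the highest wild-type array, that of 10 weeks. The null array was 9.08-fold higher at 5 weeks, 2.76-fold at 10 weeks and 20.6-fold at 50 weeks. Over the ages the difference was 3.01 ± 0.60 on the log2 scale (SE, n = 3 arrays per genotype), or 8.03-fold, with a limma adjusted p of 0.142. In order of level the arrays ran wild type 50 weeks, wild type 5 weeks, wild type 10 weeks, null 5 weeks, null 10 weeks and null 50 weeks. The lowest pair differed by less than the spread of replicate spots. Steps between the other neighbours exceeded that spread, but with 1 mouse in each condition their spread between mice was not measured. With a normexp background correction in place of the scanner's the difference was 1.88 and the adjusted p 0.0558. With the mice of 50 weeks left out it was 2.32, and with those of 10 weeks left out 3.78.

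Il6, the family's best-known inflammatory ligand, was close to the detection limit. The scaled signal was 1.01, 0.655 and 0.840 in wild type and 1.29, 9.64 and 4.34 in the nulls. Only the null arrays of 10 and 50 weeks were well above background. Against the lowest signal called above background on the wild-type array, the 10-week null exceeded wild type at least 3.23-fold and the 50-week null at least 1.15-fold. Over all 3 arrays of each genotype the bound was at least 1.02-fold, which is close to no difference.

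Lif, a ligand that pairs gp130 with Lifr, gave 19.9, 9.63 and 13.1 in wild type and 7.01, 10.9 and 10.03 in the nulls. The groups overlapped. The difference was -1.51 at 5 weeks, 0.18 at 10 weeks and -0.38 at 50 weeks on the log2 scale, with a mean of -0.57 ± 0.36 (limma adjusted p = 0.385). Without the 5-week pair the mean was -0.10, so it rested mostly on those 2 mice, and with normexp it was -0.22.

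Osm, which signals through gp130 with Osmr or Lifr, was well above background on a single array. Its scaled signal there, in wild type at 5 weeks, was 83.1. The other wild-type arrays gave 1.62 and 1.41 and the nulls 2.03, 2.51 and 0.926. The high array was 33.1-fold above the next, and at 5 weeks the null was at least 19.7-fold lower. Over all 3 arrays of each genotype the bound was at least 1.72-fold lower in the nulls. On that 1 spot the scanner software had rejected 8 pixels and kept 54, with a pixel coefficient of variation of 0.284. On the other arrays it rejected 0 to 2 pixels, with coefficients from 0.193 to 0.229. The same array had 34 genes at least 10-fold above every other array, while the other arrays had 5 to 57 such genes. Among the 34 was the macrophage gene Cd163 (19.6, and under 1 elsewhere), also well above background there alone. Of the other macrophage genes, Mpeg1, Aif1, Mrc1 and Csf1r were lower there than in the 5-week null, and Adgre1 was about level (14.3 against 13.6). Whether Osm was high in that mouse or on that spot cannot be told from 1 spot.

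Il11ra1, the receptor subunit that binds interleukin 11, was lower in the nulls. The scaled signal was 2858, 2351 and 2251 in wild type and 1958, 1630.5 and 1416 in the nulls, so every null array lay below every wild-type array. The log2 differences were -0.55, -0.53 and -0.67 at 5, 10 and 50 weeks, with a mean of -0.58 ± 0.11 (limma adjusted p = 0.141). This was the smallest adjusted p of the 8 genes, on a difference far smaller than that of Il11. The mouse genome carries near-identical copies of this gene, named Il11ra2, without a probe of their own here, so the signal may hold more than 1 locus.

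Il6ra, the binding subunit for interleukin 6, gave 519, 418 and 307 in wild type and 388, 344 and 254 in the nulls. The null mouse was lower at each age, while the groups as a whole overlapped. The mean log2 difference was -0.32 ± 0.11 (limma adjusted p = 0.202), and -0.20 when arrays were scaled to their median. In both genotypes the level was lowest at 50 weeks.

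Il6st, the gp130 subunit itself, gave 114, 118 and 74.5 in wild type and 102, 72.4 and 66.9 in the nulls. The mean difference was -0.34 ± 0.17 (limma adjusted p = 0.292) and the groups overlapped. Most of it came from 10 weeks (-0.71), and without that pair it was -0.16. Scaled to the median, the 50-week difference turned from -0.16 to 0.031.

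Osmr, the signalling subunit that joins gp130 for oncostatin M, had the largest difference of the 8 genes after Il11. Its scaled signal was 12.7, 70.6 and 20.4 in wild type and 84.4, 75.5 and 68.8 in the nulls. The null arrays were close to one another, and the wild-type array of 10 weeks was level with them, slightly above the null of 50 weeks, so the groups overlapped. They separated when arrays were scaled to the median. The log2 differences were 2.73, 0.10 and 1.75, with a mean of 1.53 ± 0.55, or 2.88-fold (limma adjusted p = 0.208). The mean was 0.93 without the 5-week pair and 0.89 with normexp.

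**Figure D2:**
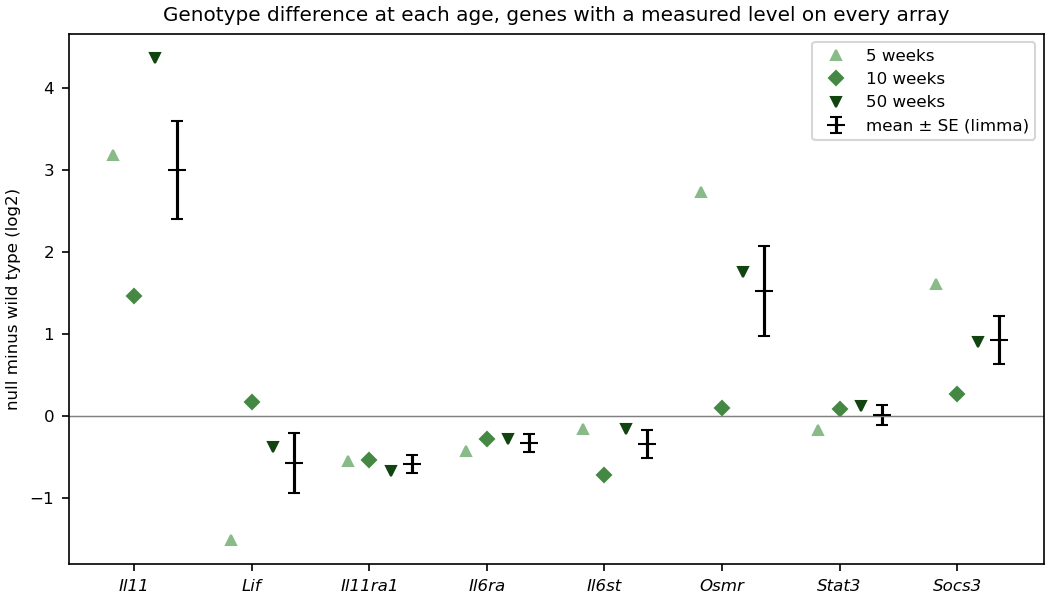
Null minus wild type (log2 of scaled signal) at 5, 10 and 50 weeks, as triangles, diamonds and inverted triangles, with the limma mean ± SE over the 3 ages, for the 8 genes with a level well above background on every array. Il11, Osmr and Socs3 lie above 0 at each age with the smallest difference at 10 weeks, and Il11ra1, Il6ra and Il6st lie below 0 at each age.

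Stat3, the factor that the receptors activate, was level between genotypes. The probe with the higher signal gave 1254, 1001 and 987 in wild type and 1117, 1064 and 1074 in the nulls. The difference was 0.01 ± 0.13 on the log2 scale (limma adjusted p = 0.951), with a sign that turned under other settings (-0.018 with quantile normalization). The other Stat3 probe gave 21.3, 18.5 and 17.1 in wild type and 16.7, 17.7 and 16.1 in the nulls, again overlapping. The arrays measure RNA only, so phosphorylation of Stat3 was not observed.

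Socs3, the inhibitor that Stat3 induces, was higher in the nulls. The scaled signal was 189, 448 and 375 in wild type and 576, 538 and 704 in the nulls, with every null array above every wild-type array. The null was 3.06-fold higher at 5 weeks, 1.20-fold at 10 weeks and 1.88-fold at 50 weeks. The mean log2 difference was 0.93 ± 0.29, or 1.90-fold (limma adjusted p = 0.187), and 0.59 without the 5-week pair.

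At a single age 1 mouse was set against 1 mouse, with no replicate check and no p-value. At 5 weeks Il11, Osmr and Socs3 were at least 2-fold higher in the null, 3 of the 8 genes, against 3.56% of 16395 genes well above background on both arrays. Lif was at least 2-fold lower, 1 of 8 against 4.85%, but with normexp its difference was -0.50 in place of -1.51 and short of 2-fold. At 10 weeks 1 of the 8, Il11, was at least 2-fold higher, against 4.29% of 17118 genes, and 0 were lower, against 5.26%. At 50 weeks Il11 and Osmr, 2 of 8, were at least 2-fold higher, against 2% of 17074 genes, and 0 were lower, against 4.32%. With normexp Il11 differed by 1.66, 1.19 and 2.79 on the log2 scale at the 3 ages, in place of 3.18, 1.46 and 4.37.

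The second comparison asks how the same genes vary with age. The age effect in the same limma fit called 2 of 17860 genes (0.0112%) at an adjusted p under 0.05, and 0 of the 8 axis genes, whose adjusted p-values ran from 0.353 to 0.932. Before adjustment 2441 genes had a limma p under 0.05, and 1 of the 8, Il6ra, was among them. Il6ra stood at -0.69 on the log2 scale at 50 against 5 weeks over both genotypes. A test of whether the genotype difference changes with the logarithm of age called 0 of 17860 genes (0%), with 506 at a limma p under 0.05 before adjustment. None of the 8 was among those 506, and their smallest adjusted p was 0.9996. The nulls ordered by age for Il11 (89.8, 131, 203) are 3 mice, and a trend within the nulls alone was not tested.

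Within wild type, the array of 10 weeks held the highest Il11, Osmr and Socs3. Il11 was 4.81-fold above the 5-week array and 4.85-fold above the 50-week array. Osmr was 5.54-fold and 3.46-fold above them, and Socs3 2.37-fold and 1.19-fold. At least 2-fold above both was reached by 2 of the 8 genes, against 1.31% of 16457 genes, in a contrast chosen after the values were seen. This array had 57 genes at least 10-fold above every other array, against 5 to 51 on the others. The 10-week array alone carried high signal of the fibrinogen chains Fgb (270, against 16.0 or less elsewhere) and Fgg (181, against 9.60 or less). The remaining chain, Fga, did not peak there, with 12.2, 9.86 and 7.25 in wild type. The summed smooth muscle signal was 1204 at 5 weeks, 4192 at 10 weeks and 6594 at 50 weeks in wild type, and Krt5, a keratin of squamous epithelium, was 7.17, 132 and 211. Both were highest in wild type at 50 weeks. Of the other squamous genes tested, Krt13 was highest in wild type at 10 weeks and Trp63 at 5 weeks. Krt14, Krt4 and Krt6a, above background on too few arrays to be tested, were highest in wild type at 50 weeks (27.1, 18.8 and 8.90). No null array measured these well above background, and Krt5 in the nulls was 6.58, 6.31 and 9.30. Carry-over of muscle or squamous epithelium was not tested. The median difference of the 5 neutrophil genes tested was 1.501 on the log2 scale at 10 against 5 weeks and 1.87 at 10 against 50 weeks. Csf3r among them went the other way, with 6701, 3666 and 3928 at 5, 10 and 50 weeks in wild type. For the 8 fibroblast genes the same medians were -0.11 and 0.30. The part of such cells in the level of Il11 was not tested.

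The rest of the pathway was described from lists of its ligands, receptors, kinases, inhibitors and sheddases, and 0 of their genes passed the test. Of 8 other ligands 6 were tested, with a median difference of 0.09. Among them Ctf1, cardiotrophin 1, was lower in every null array (91.3, 83.9 and 77.2 in wild type against 67.9, 53.9 and 45.7), a log2 difference of -0.61 ± 0.13. Ebi3, a subunit of interleukin 27, stood at 0.77 ± 0.46 and Il27 at 0.31 ± 0.12, and both overlapped between genotypes. Of 4 other receptor subunits on the array, 2 were tested. Lifr, which pairs with gp130 for leukaemia inhibitory factor, gave 187, 180 and 108 in wild type and 138, 59.7 and 60.8 in the nulls, a difference of -0.95 ± 0.26. The groups overlapped through the 5-week null. Cntfr, the receptor subunit for ciliary neurotrophic factor, stood at 0.35 ± 0.15, and no array measured Il27ra or Il31ra well above background. Of the receptor genes tested, 4 (Il11ra1, Il6ra, Il6st and Lifr) had lower levels in the null mouse at each age, against 26.1% of all genes. Osmr and Cntfr had higher levels at each age, a pattern also found in 26.1% of all genes. None of these receptor genes passed the test.

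The Janus kinases on the receptors had small differences, 0.11 ± 0.13 for Jak1, -0.06 ± 0.14 for Jak2 and -0.09 ± 0.16 for Tyk2. Over the 6 kinases and adaptors tested of 8 the median was -0.07, and the largest difference was that of the adaptor Gab1, at -0.92 ± 0.28. Gab1 was near the detection limit. Of 9 other inhibitors 8 were tested, with a median of -0.19. Socs1, a feedback inhibitor of cytokine receptors like Socs3, was higher in every null array (8.98, 8.06 and 6.14 in wild type against 16.8, 11.9 and 22.4), a difference of 1.11 ± 0.29. The related Socs2 went the other way, at -0.74 ± 0.13, and Cish stood at -0.38 ± 0.17. The tyrosine phosphatase Ptpn2 stood at 0.32 ± 0.12. The sheddases that release the soluble interleukin 6 receptor stood at 0.04 ± 0.13 for Adam10 and 0.26 ± 0.21 for Adam17. Limma adjusted p-values of the genes named in these lists were 0.134 or higher.

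Genes known as Stat3 targets in other tissues differed in both directions, with more of them higher than lower in every null array. Of 32 such genes 31 were tested and 0 passed. All 3 null arrays were above wild type for 8 of the 31 (25.8%, against 12.5% of all genes) and below for 2 (6.45%, against 11.3%). The 8 were Il4ra, Timp1, Hif1a, Saa3, Lcn2, Reg3b, Reg3g and Lrg1, and the 2 were Fga and Muc1. The list's median difference was 0.18, with 0.57 at 5 weeks, -0.14 at 10 weeks and 0.51 at 50 weeks. It was drawn up with earlier results of these data known, so its direction is no independent evidence. Without the 10-week pair 16 of the 31 (51.6%) had both remaining nulls above both wild-type mice, against 20.03% of all genes. Without the 5-week pair it was 12 (38.7%, against 26.6%), and without the 50-week pair 9 (29.0%, against 22.7%).

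The largest differences of this list lay in secreted proteins of epithelial defence and the acute phase. Reg3b and Reg3g, lectins that bind bacteria, differed by 4.56 ± 1.20 and 4.43 ± 0.50 on the log2 scale. Reg3g was 14.3, 40.5 and 45.8 in wild type and 219, 472 and 2557 in the nulls. Saa3, an acute-phase apolipoprotein, was 72.8, 11.4 and 5.06 in wild type and 103, 633 and 323 in the nulls (4.10 ± 1.26). Lrg1, a secreted leucine-rich glycoprotein, was 30.1, 252 and 152 in wild type and 407, 1306 and 1790 in the nulls, a difference of 3.23 ± 0.32 with a limma adjusted p of 0.101, the lowest of the list. Timp1, an inhibitor of metalloproteinases, was 7.77, 82.9 and 35.1 in wild type and 113, 175 and 113 in the nulls (2.21 ± 0.60). As for Il11, its wild-type peak was at 10 weeks. The fibrinogen chain Fgb had the largest negative difference, -4.05 ± 1.79, with 7.58, 270 and 16.0 in wild type and 11.98, 0.955 and 0.623 in the nulls. Its null arrays of 10 and 50 weeks were not well above background, and at 10 weeks the null was at least 76.1-fold lower. Regulators of growth and survival on the list were spread out, at 1.42 ± 0.39 for Birc5 and 0.86 ± 0.37 for Bcl3 but 0.10 ± 0.15 for Myc, 0.12 ± 0.16 for Mcl1 and 0.01 ± 0.15 for Bcl2l1. Tff1, the stomach trefoil peptide, stood at -0.13 ± 0.16.

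**Figure D3:**
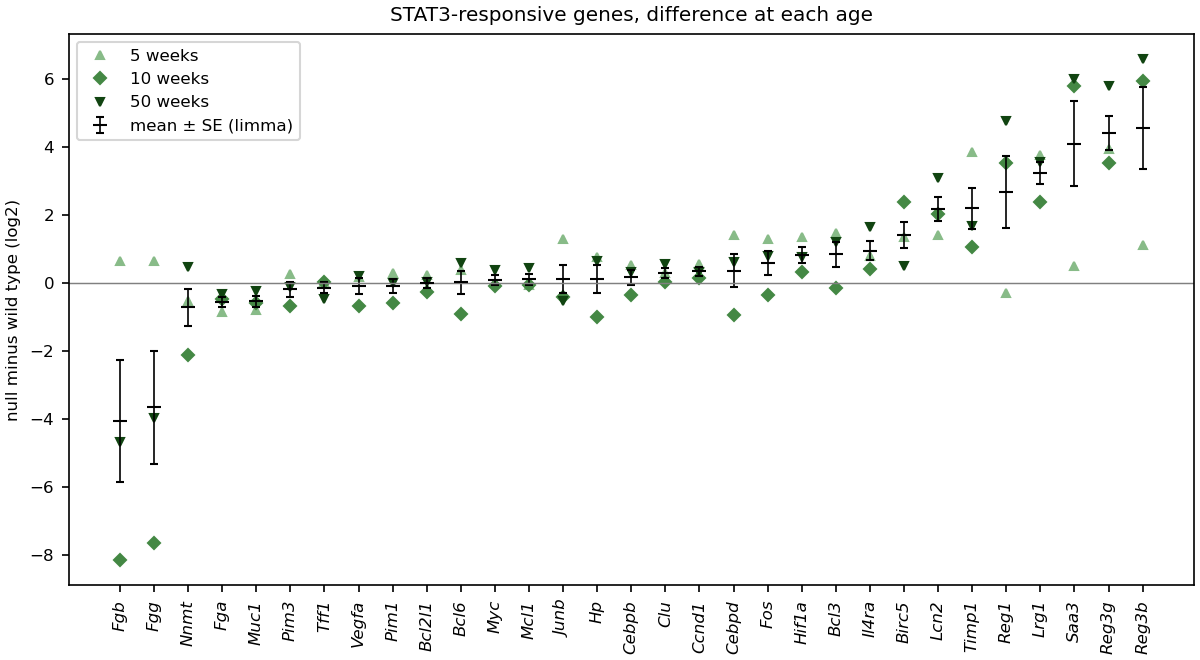
Null minus wild type (log2 of scaled signal) for the 31 Stat3-responsive genes tested, ordered by mean, with the difference at 5, 10 and 50 weeks as symbols and the limma mean ± SE over the 3 ages. Reg3b, Reg3g, Saa3 and Lrg1 lie at the upper end above 3, and most genes have a mean within 2-fold of no difference. Fgb and Fgg at the lower end include arrays not well above background.

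Several cell markers differed alongside these genes. Of 8 fibroblast genes 4 were higher in every null array (Col1a1, Col1a2, Col3a1 and Vim), against 12.5% of all genes tested. The list median was 0.70, with a summed scaled signal of 1361 to 2159 in wild type and 2119 to 2789 in the nulls. Of 7 macrophage genes 5 were tested and 2, Mpeg1 and Aif1, were higher in every null array, against the same 12.5% of all genes. Their list had a median of 0.51 and sums of 734 to 997 and 843 to 1251, and no array measured Cd68 above that limit. Of 7 neutrophil genes 5 were tested, with a median of 1.41. Their sums of 3923 to 6786 in wild type and 3492 to 4699 in the nulls were dominated by Csf3r, and Cxcr2 was not well above background. S100a8, abundant in neutrophils, was 7.82, 40.6 and 4.41 in wild type and 159, 56.5 and 18.4 in the nulls. T cell genes were mixed: Cd3e (304 to 583) and Cd4 (434 to 989) were well above background on all 6 arrays, with differences of 0.03 ± 0.15 and -0.54 ± 0.21, while Cd3d and Cd8a were below the limit on all. Of the B and plasma cell genes, Cd79b was well above background on all 6 arrays and Jchain on 4 (up to 56.9), with differences of 0.25 ± 0.39 and 0.75 ± 0.15, and Cd79a, Ms4a1 and Mzb1 on none. Parietal and chief cell genes were lower in the nulls at each age, 4 of 4 in both lists against 26.1% of all genes, with medians of -1.30 and -1.05, and 3 of 3 gland mucous cell genes were higher (median 0.92). The parietal sums were 46948 to 72182 in wild type and 20690.1 to 60444 in the nulls. The list of 6 pancreas genes summed to 9269 to 40003 in wild type and 2153 to 35470.1 in the nulls, most of it from Amy2a5. Cpa1 and Pnlip were not well above background on either 10-week array. At 5 and 50 weeks Cpa1 was 1746 and 456 in wild type, and 645 and 4.07 in the nulls. At each age 1 of the 6, Cela1, was higher in the null and 4 were lower, against 26.1% of all genes either way. Carry-over of pancreas tissue was not tested. The median smooth muscle difference was 2.19 for the 5-week pair and -2.53 for the 50-week pair. The part of these cells in the levels of Il11, Osmr, Socs3 and the receptor genes was not tested.

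The genes whose pattern over the 6 arrays was most like that of Il11 were Mmp3, Cxcl1, Khdc1a, Ccn4, Il1b and Mefv. They were the highest of 851 genes tested whose log2 SD over the arrays was at least 1, by Pearson's r over 6 arrays that share their mice and slides with Il11. The r was 0.997 for Mmp3, a stromal metalloproteinase, 0.993 for Cxcl1, a neutrophil chemoattractant, and 0.988 for Khdc1a. It was 0.980 for Ccn4, a matricellular protein, and for the cytokine Il1b, and 0.979 for Mefv, which encodes the inflammasome protein pyrin. Mmp3 gave 1.11, 8.41 and 0.884 in wild type and 33.3, 57.6 and 88.3 in the nulls. Il1b gave 5.84, 19.1 and 3.56 in wild type and 45.6, 39.7 and 58.6 in the nulls. Both had their wild-type peak at 10 weeks and all nulls above it, as follows from picking them by their likeness to Il11. Between 3 and 5 of the arrays were well above background for these 6 genes, so their lowest values are not well measured. Khdc1a and Mefv were measured on 3 arrays only, the nulls, Mmp3, Cxcl1 and Ccn4 on 4 and Il1b on 5. Without the nulls each would have fallen short of the 3 arrays needed for the test. All 6 were therefore tested only because they are high in the nulls, and this in part fixes their likeness to Il11. Of the axis genes, Osmr had an r of 0.906, Socs3 of 0.873 and Il11ra1 of -0.879 with Il11, and Stat3 one of -0.17.

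**Figure D4:**
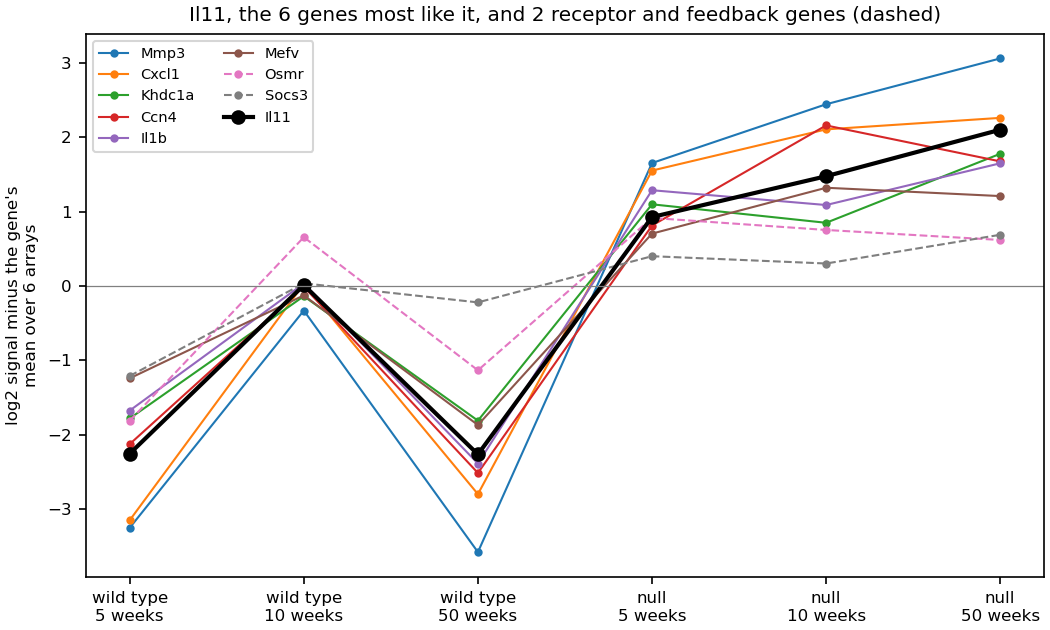
Log2 scaled signal minus each gene's mean over the 6 arrays, for Il11 (thick black line), the 6 genes most like it (thin lines) and Osmr and Socs3 (dashed), on the 3 wild-type and 3 null arrays in order of age. Il11 and the 6 genes are low in wild type at 5 and 50 weeks, intermediate at 10 weeks and high in the nulls. This likeness follows from how the 6 genes were picked. Osmr is as high in wild type at 10 weeks as in the nulls. Socs3 is lowest in wild type at 5 weeks, and its other wild-type arrays also lie below every null array.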

How the data were processed

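Per the labels' protocols, total RNA was purified on RNeasy columns and labelled with Cy3. Spot intensity was read with Agilent Feature Extraction, per the file headers, and its processed signal is background-subtracted. A deposited table holds the authors' log2 values, which equal the log2 processed signal plus a constant for each array (-7.88 to -8.54). Its column medians were -3.56 to -3.89. The choice of that constant is not given in the sources used here, and the table served as an alternative only.

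From the processed signal, 98 to 144 outlier spots per array were dropped, replicate spots averaged and the array's 75th percentile (252.8 to 402.8 units) subtracted on the log2 scale. No spot was saturated. After leaving out 30 probes flagged on every spot of an array, 31689 genes remained, each read by its probe with the highest mean signal. Probe names came from RefSeq accessions (26055), symbols (3195) or synonyms (930), and 9249 kept the array's name. Genes well above background on at least 3 arrays were tested in R 4.3.3 using limma 3.58.1. Age entered the model as a factor (2 residual and 2.12 prior degrees of freedom) and p-values were adjusted after Benjamini and Hochberg. The fit was tested on simulated data. A fold with a probe below background on 1 side is given as a bound, against the lowest well-measured signal of that array, or against the probe's own signal if higher. Nothing says how mice of one genotype are related, so p-values measure only the spread between these samples. The number of arrays limits the precision.

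All axis genes were named, up to 4 genes per pathway list by size of difference (others named were chosen after their values were seen), and the 6 genes most like Il11. Some genes that this rule would name are left out of the text. The members and lists were chosen with earlier results of these data known. Alternatives were quantile and median scaling, normexp on mean and background intensity with an offset of 50, other filters, the mean of a gene's probes, a variance trend, the deposited table, no age term and each age pair left out.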

Additional observations from a re-analysis of the deposited data

How the results depend on the processing

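The genotype effect called 0 genes, and 1 with quantile normalization, 6 without the age term, 41 with a variance trend (28 higher, 13 lower) and 189 with normexp (97 higher, 92 lower). It called 0 under the 5 other settings and without any 1 age pair. None of the 8 axis genes was called under any of these settings. The age effect called 2 genes, and 8 with normexp, 5 with a variance trend and 0 without a signal filter or with all arrays well above background. With normexp 537 genes were at least 2-fold apart at 5 weeks, 844 at 10 weeks and 486 at 50 weeks, against 1378, 1636 and 1078. The difference of Stat3 turned to -0.018 with quantile normalization and -0.077 with the mean of its probes, and ran from -0.039 to 0.11 over the left-out pairs. Leaving out an age pair was chosen for counts of separated groups after seeing the data, and fewer arrays separate more easily. Axis genes with all nulls above then numbered 3 in place of 2 and below 2 to 3 in place of 1, and Stat3-responsive genes 9 to 16 above and 2 to 5 below, in place of 8 and 2. Over all genes the shares were 20.03% to 26.6% above and 19.5% to 28.3% below. The age factor is the pairing of this design. Median scaling moved the median of all genes to 0.10. Refitted under the alternatives, the 8 axis genes gave 96 differences. Among them, 92 kept their direction and stayed short of the threshold, though some moved in size. The 4 that turned were all of Stat3. Of 72 differences of the same 8 genes at single ages, under quantile or median scaling or normexp, 16 moved further than the spread of replicate spots. Low-signal genes such as Il6, Osm and Gab1 are limited by background, and 1 mouse per condition limits every value.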
